A study of Homo sapiens with 2 samples.

Results

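The genes described here are the microRNA precursor genes and the long noncoding host genes named after a microRNA, read in PC3, a human prostate cancer cell line. They were picked in 2 steps from the deposited array table. Genes whose platform symbol starts with MIR and a digit, or with MIRLET, gave 639 measured genes out of 13864 named genes. Those with a deposited log2 value of at least 7.0 on either array were kept, which left 94 genes, 89 precursors and 5 host genes whose symbol ends in HG. The signal itself therefore chose them, and neither their brightness nor their differences are tested. One group was a PC3 line stably overexpressing miR-95 and the other a PC3 line stably overexpressing a control microRNA. Both were grown in DMEM with serum, and each group rests on 1 array, which leaves every value here without a replicate error or a test. The sources used here do not say whether a line was a pool or 1 clone.

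A microRNA gene is first transcribed as a long primary transcript, often inside an intron of another gene. The nuclear enzyme DROSHA cuts a hairpin out of it, DICER1 trims the hairpin, and 1 strand is loaded into an Argonaute protein. That mature strand finds messenger RNAs mainly through its seed, bases 2 to 8. Probe sets of this kind of array lie on the precursor or its host transcript, so the values say nothing direct about the mature strand, and the RNA was purified on columns of a kind that retain small RNA poorly. Levels of different genes come from different probes and are not set against each other as amounts.

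The overexpressed microRNA and the mature strands of the genes the results turn on are shown first, from RefSeq on GRCh38.p14, 5′ to 3′ with the seed in capitals. MIR95 was named by no probe set used here, so the overexpression could not be checked on these arrays. MIR1229, MIR503 and MIR4279 had the largest differences. The other lines show pairs that share a seed or a cluster, with miR-21 and let-7a. MIR95 lies on chromosome 4, MIR221, MIR222 and MIR424 on X, MIR25 on 7, MIR92B on 1, MIR21 on 17, and MIRLET7A2 and MIRLET7A3 on 11 and 22.
hsa-miR-95-3p: uUCAACGGguauuuauugagca
hsa-miR-1229-3p: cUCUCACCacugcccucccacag
hsa-miR-503-5p: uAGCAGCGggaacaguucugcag
hsa-miR-424-5p: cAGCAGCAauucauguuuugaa
hsa-miR-4279: cUCUCCUCccggcuuc
hsa-miR-221-3p: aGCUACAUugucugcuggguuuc
hsa-miR-222-3p: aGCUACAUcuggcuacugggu
hsa-miR-25-3p: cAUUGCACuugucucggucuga
hsa-miR-92b-3p: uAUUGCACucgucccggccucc
hsa-miR-21-5p: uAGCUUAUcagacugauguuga
hsa-let-7a-5p: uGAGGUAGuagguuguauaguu

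RefSeq mature sequences were matched for 78 of the 94 genes, and 0 of them shared a seed with either strand of miR-95. The reverse complement of the miR-95-3p seed, CCGUUGA, was in 0 of the 77 hairpins matched, searched on the hairpin strand alone. It was in 4 of all 1560 RefSeq hairpins (0.256%). Shared seeds joined 10 of the genes into 5 pairs. These were MIR221 with MIR222, MIR25 with MIR92B, the let-7a copies MIRLET7A2 and MIRLET7A3, MIR326 with MIR330, and MIR1301 with MIR5047.

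Differences between the arrays were counted for these genes at 1.5-fold and at 1.2-fold. A difference is the log2 value of miR-95 cells less that of control cells, after each array was centred on its median over named genes (7.495 in miR-95 cells, 7.46 in control cells). Values of single genes are printed as deposited, and differences and folds after centring. Of the 94 genes, 2 (2.13%) were at least 1.5-fold higher on the miR-95 array, against 0.398% of the 8032 named genes held to the same threshold of 7.0. On the other side 1 (1.06%) was at least 1.5-fold lower, against 0.884% of those genes. At 1.2-fold, 6 genes were higher (6.38%, against 5.55% of all) and 9 were lower (9.57%, against 8.4% of all). These counts are small, and each gene entered through the array where it was brighter, so nothing is read from them about the list as a whole. The median difference was 0 and 47 of 94 differences were positive (50%, against 41.7% of all genes at the threshold, whose median was -0.025).

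MIR1229 had the largest positive difference. The gene read 7.73 in miR-95 cells and 6.87 in control cells, a centred difference of 0.825, or 1.77-fold higher. It ranked 7th from the top among the 8032 genes. MIR503, whose mature strand is known to restrain cell cycle genes, read 7.42 in miR-95 cells and 6.76 in control cells, 1.54-fold higher and ranked 23rd. This passing of 1.5-fold was lost when an offset of 32 was added on the linear scale, where its difference was 0.50 and MIR1229 alone remained past 1.5-fold upwards. MIR4279 went the other way, at 6.48 in miR-95 cells and 7.39 in control cells, 1.93-fold lower and ranked 7th from the bottom.

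All 3 reached 7.0 on only 1 of the arrays. Of the 94 genes, 81 were at or above 7.0 on both, 6 on the miR-95 array alone and 7 on the control array alone. Of all 8032 named genes at the threshold, 7730 were at or above 7.0 on both, so the microRNA genes lay nearer the cut. Among the 81, the differences lay between -0.565 and 0.295 and 0 passed 1.5-fold in either direction. Of the 7730 named genes at 7.0 on both arrays 0.336% passed 1.5-fold upwards and 0.75% downwards, so a count of 0 among 81 lies near the share over all genes. The nearest was MIR665, of the imprinted microRNA region on chromosome 14, at 7.02 in miR-95 cells and 7.55 in control cells (1.48-fold lower).

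**Figure D1:**
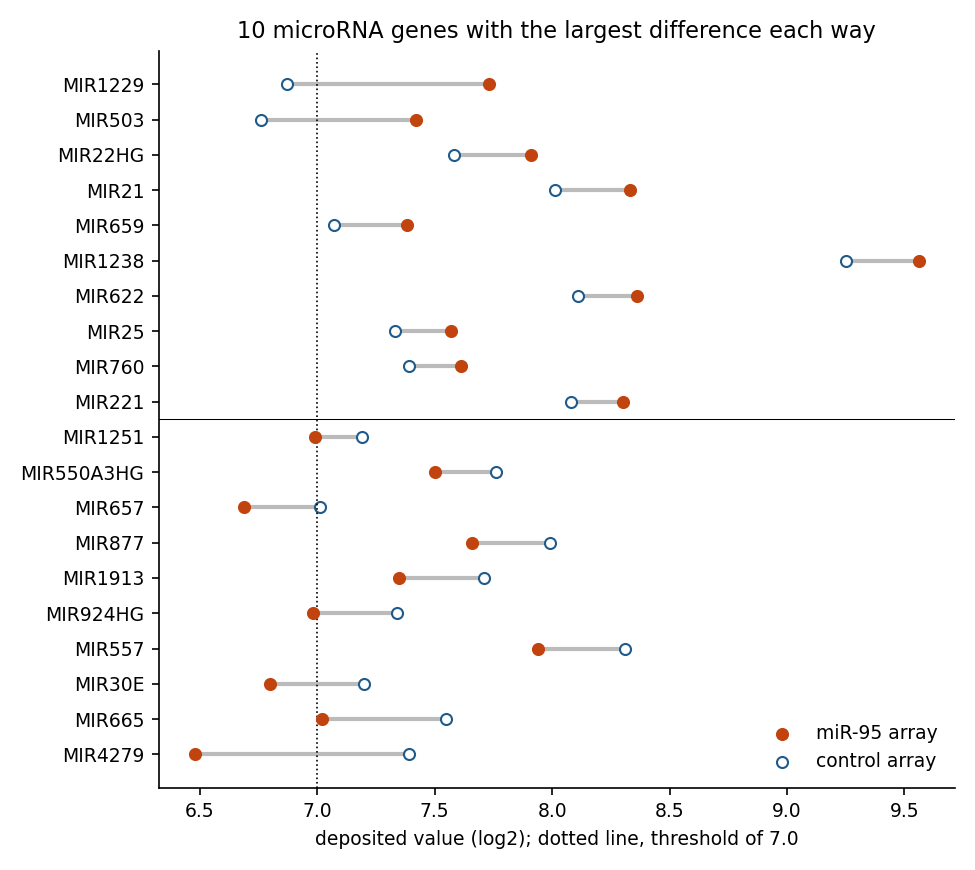
Deposited log2 values of the 10 microRNA genes with the largest positive (top) and the 10 with the largest negative differences (bottom), with filled points for the miR-95 array, open points for the control array and a dotted line at 7.0. MIR1229 and MIR503 lie above the line on the miR-95 array alone and MIR4279 on the control array alone, while MIR22HG, MIR21, MIR557 and MIR877 lie above it on both arrays.

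The next genes were separated by much less. MIR22HG, the host transcript of the stress-responsive miR-22, read 7.91 in miR-95 cells and 7.58 in control cells (1.23-fold higher). MIR21, which makes a microRNA abundant in many tumours, read 8.33 in miR-95 cells and 8.01 in control cells (1.22-fold higher). MIR659 and MIR1238 were each 1.21-fold higher. Below the control were MIR30E (6.80 in miR-95 cells, 7.20 in control cells, 1.35-fold lower) and MIR557 (7.94 in miR-95 cells, 8.31 in control cells, 1.32-fold lower). MIR924HG and MIR1913 were each 1.31-fold lower, MIR877 was 1.29-fold lower and MIR657 1.28-fold lower. Of all 94 genes, 42 differed by no more than 0.1 either way (44.7%, near the 47.5% of all named genes at the threshold).

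The size of these differences can be set beside the disagreement between probe sets of 1 gene. Of the 639 microRNA genes, 22 had more than 1 probe set, and the pooled SD of the difference between probe sets of 1 gene was 0.268. Some of those probe sets hold identical values on both arrays, and most read far below 7.0, so the figure is only a guide, and it holds no variation between cultures. MIR1229, MIR503 and MIR4279 each had 1 probe set, so no such disagreement could be read for them. Only 2 of the 94 genes had several probe sets. For MIR3160-1 the centred differences were -0.155 and -0.135. For MIR338, which lies in the gene AATK, they were 0.075 and -0.275, so its direction depended on which probe set was read.

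**Figure D2:**
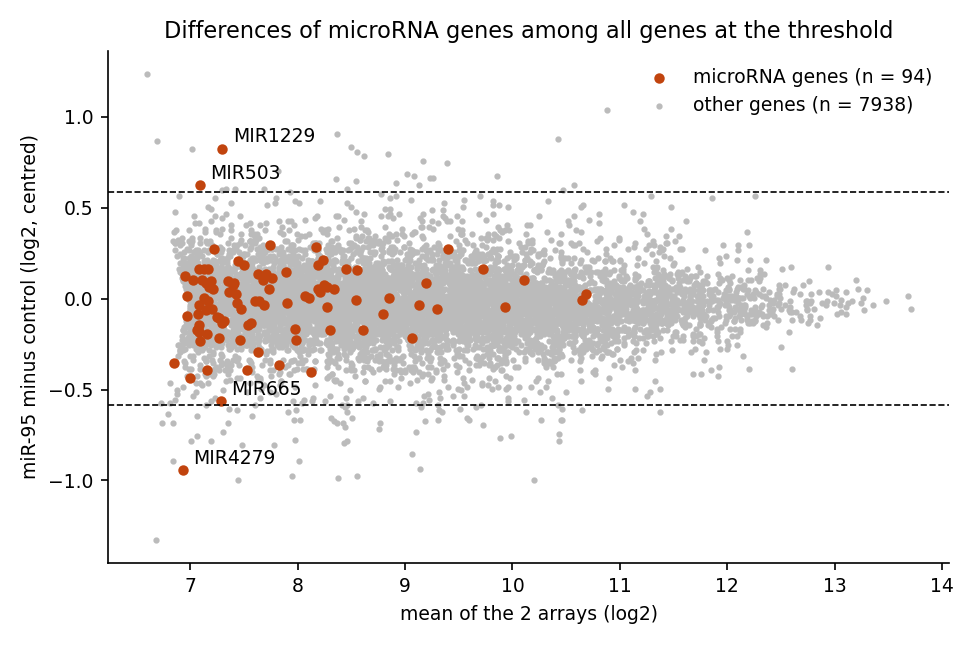
Centred difference (miR-95 minus control, log2) against the mean log2 value of the 2 arrays for the 94 microRNA genes and the other named genes at the threshold, with dashed lines at 1.5-fold. Most microRNA genes lie at low means, inside the cloud of the other genes, with MIR1229, MIR503 and MIR4279 outside the lines.

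Most of the genes were dim. The higher value lay between 7.0 and 7.5 in 42 genes, between 7.5 and 8 in 21, between 8 and 9 in 21 and at 9 or more in 10. The SD of the differences was 0.254 over the 63 genes below 8 and 0.154 over the 31 genes at 8 or more, but the first value holds MIR1229, MIR503 and MIR4279, which entered through 1 array. Over the 50 genes below 8 that reached 7.0 on both arrays it was 0.171, near the 0.154 of the brighter genes. The same SDs over all named genes at 7.0 on both arrays were 0.163 (1638 genes below 8) and 0.185 (6092 genes). The 545 microRNA genes below 7.0 on both arrays had an SD of 0.301. Of these, 12 (2.2%) passed 1.5-fold upwards in miR-95 cells, against 0.463% of all 5832 named genes below 7.0, and 18 (3.3%) passed it downwards, against 0.977%. Their higher value had a median of 4.65, against 5.77 over those 5832 genes, and the part of signal level in the counts was not tested.

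Among the 10 brightest genes the differences lay between -0.215 and 0.275. MIR31HG, the host transcript of miR-31, read 10.72 in miR-95 cells and 10.66 in control cells. MIR1910 read 10.66 in miR-95 cells and 10.63 in control cells, and MIR3143 read 10.18 in miR-95 cells and 10.04 in control cells. MIR663B read 9.93 in miR-95 cells and 9.94 in control cells, and MIR574 read 9.29 in miR-95 cells and 9.31 in control cells. MIR1238 differed most of these 10, at 9.56 in miR-95 cells and 9.25 in control cells, and MIR346 had the largest negative difference among them, at -0.215.

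At the threshold itself, MIR1911 and MIR330 had a higher value of exactly 7.0 and MIR657 of 7.01. Just outside were MIR27A at 6.96 and MIR1226 and MIR1180 at 6.95. Their differences ran from -0.355 for MIR657 to 0.105 for MIR1226.

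Of the 22 measured host genes named HG, 5 reached the threshold. MIR31HG and MIR22HG are given above. MIR4453HG read 8.23 in miR-95 cells and 8.37 in control cells, and MIR550A3HG read 7.5 in miR-95 cells and 7.76 in control cells. MIR924HG read 6.98 in miR-95 cells and 7.34 in control cells, so it reached 7.0 through the control alone. The other measured genes named HG stayed below 7.0 on both arrays. Among these, MIR17HG, the host of the miR-17-92 oncogenic cluster, read 6.68 in miR-95 cells and 6.63 in control cells, and MIR100HG read 6.93 in miR-95 cells and 6.92 in control cells.

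Precursors that lie close together are often cut from 1 primary transcript, so their values were set side by side. With neighbours within 10 kb on the same strand, 12 clusters of measured microRNA genes held at least 1 gene at the threshold, and 5 held more than 1. In the cluster on chromosome X that holds MIR503, its neighbour MIR424 read 7.18 in miR-95 cells and 7.04 in control cells (1.08-fold higher). The mature strands of both are printed above and have similar seeds. The other cluster genes were dim. MIR542 differed by 0.085 and MIR450B by -0.185, while MIR450A1 differed by 0.915 between values of 3.29 in miR-95 cells and 2.34 in control cells. The 1.5-fold difference of MIR503 was not seen in MIR424, MIR542 or MIR450B. MIR503HG, the annotated host of MIR503, was named by no probe set used here.

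MIR221 and MIR222, which share a seed and a transcript and are known to repress the cell cycle inhibitor CDKN1B, were both slightly higher. MIR221 read 8.30 in miR-95 cells and 8.08 in control cells, and MIR222 read 7.45 in miR-95 cells and 7.34 in control cells (1.14-fold and 1.05-fold). MIR25 and MIR106B, both inside the replication helicase gene MCM7, went opposite ways. MIR25 read 7.57 in miR-95 cells and 7.33 in control cells, a difference of 0.205. MIR106B read 7.52 in miR-95 cells and 7.62 in control cells, a difference of -0.135. MCM7 itself differed by -0.165. MIR92B, with the same seed as MIR25, differed by -0.085.

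Other clusters were mixed as well. MIR30E differed by -0.435 and its neighbour MIR30C1, below the threshold, by 0.285. MIR99B differed by -0.165, MIRLET7E by 0.225 and MIR125A by -0.165, although this group is known to be transcribed together. In the AATK cluster, MIR657 differed by -0.355, MIR338 by -0.1 and MIR1250 by 0.085. On chromosome 14, MIR665 differed by -0.565. Its neighbours MIR493 and MIR337 differed by -0.155 and -0.015, and MIR127, MIR136 and MIR431 by 0.005, 0.115 and 0.325. Of these 5 neighbours MIR127 alone reached the threshold. MIR24-2 and MIR23A each differed by -0.125, with MIR27A between them at 0.045.

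**Figure D3:**
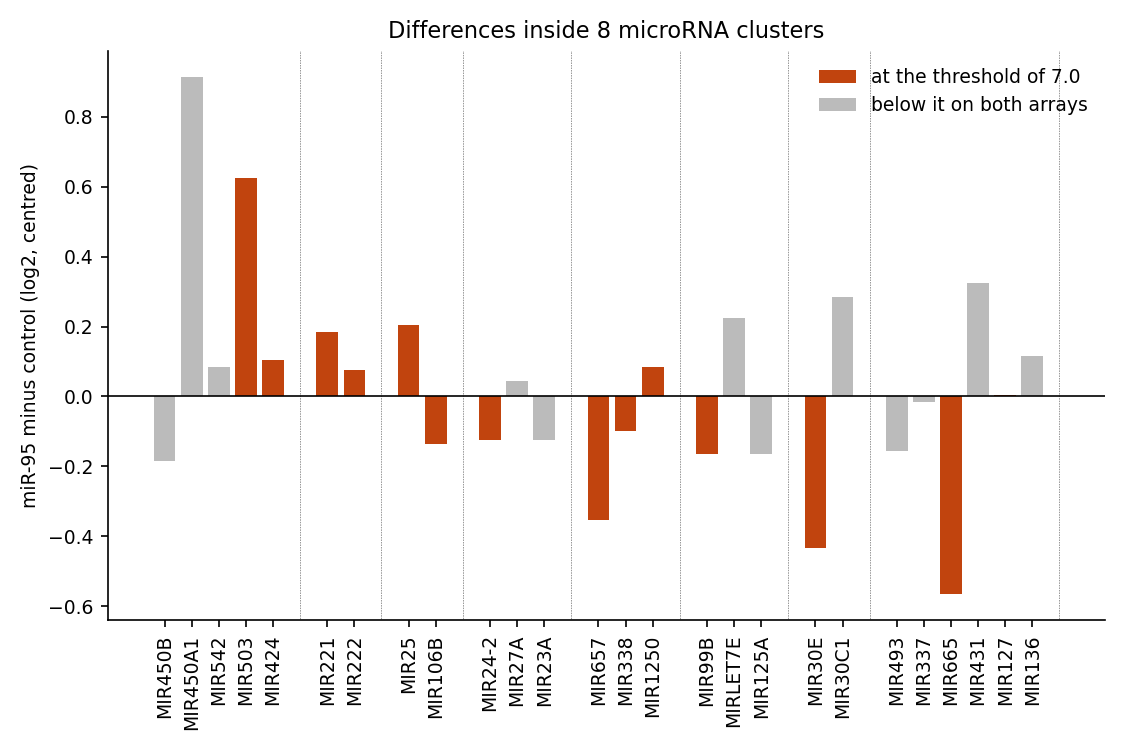
Centred difference (miR-95 minus control, log2) of each measured microRNA gene in 8 clusters, ordered by position within each cluster, with genes at the threshold of 7.0 coloured and those below it grey. Neighbours differ in direction in 7 of these clusters, and in the MIR221 and MIR222 pair both bars are positive.

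The let-7 genes, whose mature strands are known as brakes on growth and markers of differentiation, were represented by MIRLET7A2 and MIRLET7A3. MIRLET7A2 read 7.03 in miR-95 cells and 6.87 in control cells, and MIRLET7A3 read 7.47 in miR-95 cells and 7.35 in control cells. The identical mature strand is also made from MIRLET7A1, which was below the threshold and differed by -0.015. None of these copies passed 1.1-fold. MIR210, a microRNA induced by low oxygen, read 7.98 in miR-95 cells and 7.80 in control cells. MIR375, best known from pancreatic islet cells, read 7.91 in miR-95 cells and 7.90 in control cells. MIR449B, of the miR-34 seed family, read 8.30 in miR-95 cells and 8.19 in control cells, while its neighbour MIR449A was below the threshold and differed by -0.205.

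Host genes were looked up by span and strand in the RefSeq annotation of GRCh38.p14. Of the 77 genes with a hairpin in that table, 55 were matched to a gene spanning them on the same strand. The match was to a protein-coding gene for 43 and to a long noncoding RNA gene for 13 (1 gene had both kinds). Host strands came from a promoter annotation, and a gene with no strand there could not be matched. These counts may therefore be too low, and a gene without a match, such as MIR1238, may still lie in a host. For 24 of the 55 matched genes the host was measured and reached 7.0, which gave 24 pairs over 21 hosts. The signs were the same in 11 pairs and opposite in 13, and Spearman's rho across the pairs was 0.196, a description over pairs that share 2 arrays and in part share a host. Host differences ran from -0.245 to 0.335, so no host passed 1.5-fold. That lies near the shares over all named genes at the threshold, 0.398% upwards and 0.884% downwards. Without centring every difference was higher by 0.035, so negative differences smaller than that, among them MIR31 at -0.025 and MIR1301 at -0.015, turned positive. The tally of signs then became 12 pairs the same, 8 opposite and 4 with a member or host at 0, so the count of signs depends on the centring.

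Individual pairs showed both patterns. MIR3175 and its host CHD2, a chromatin remodeller, differed by -0.225 and -0.245. MIR185 and TANGO2 differed by 0.165 and 0.135. MIR21 differed by 0.285, whereas VMP1, an autophagy gene that spans it, read 13.05 on both arrays. MIR21 is known to have a promoter of its own inside that gene, and the part of that promoter in these values was not tested. MIR31 and MIR31HG differed by -0.025 and 0.025. The hosts of MIR1229 (MGAT4B, a glycosyltransferase) and MIR30E (NFYC, a subunit of the CCAAT-binding factor NF-Y) were named by no probe set used here.

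**Figure D4:**
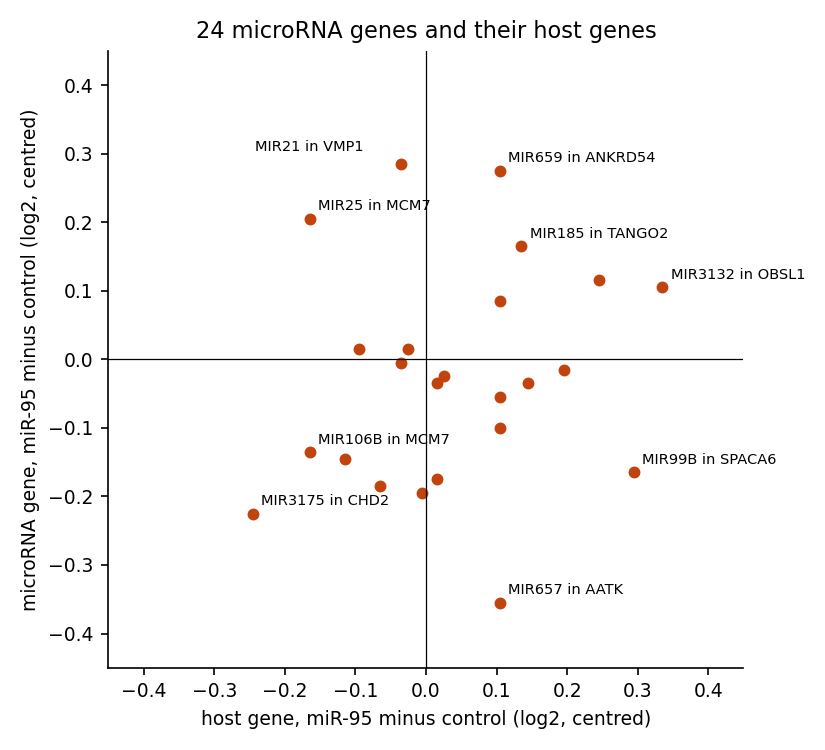
Centred difference (miR-95 minus control, log2) of 24 microRNA genes against that of the host gene that spans them on the same strand, with selected pairs labelled. The points fall in all 4 quadrants. MIR657 in AATK, MIR99B in SPACA6, MIR25 in MCM7 and MIR21 in VMP1 are among those far from the diagonal.

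The hairpins of the brighter probe sets were richer in G and C bases. The hairpins of the 77 matched genes had a median of 61.6% G and C bases, with an interquartile range from 55.7% to 66.7%. The 465 matched microRNA genes below 7.0 had a median of 46.6%, with an interquartile range from 41.2% to 54%. Of hairpins under 40% G and C, 0 of 91 reached the threshold, compared with 9 of 208 at 40 to 50%, 22 of 153 at 50 to 60%, 35 of 72 at 60 to 70% and 11 of 18 at 70% or more. Across all 542 hairpins Spearman's rho between G and C content and mean signal was 0.663, and between G and C content and the difference it was 0.043. These describe probe sets on 2 arrays, where signal is also known to depend on probe sequence, and the part of base composition in the signal was not tested. Median hairpin lengths were 82 bases at the threshold and 85 bases below it. MIR3143 was an exception in being bright with 41.3% G and C.

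**Figure D5:**
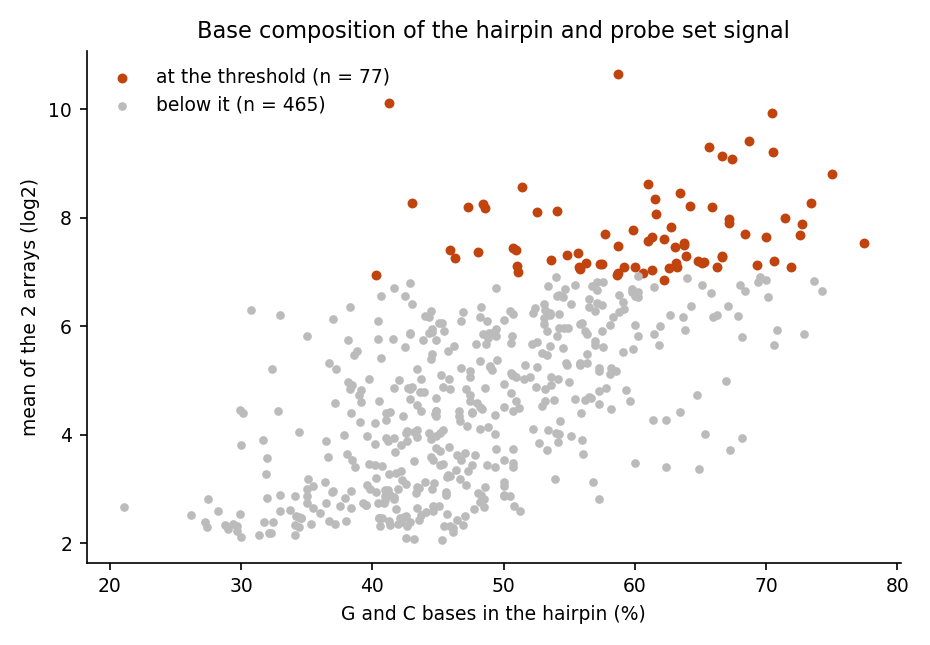
Mean log2 value of the 2 arrays against the G and C content of the RefSeq hairpin for 542 microRNA genes, with genes at the threshold coloured and the others grey. The coloured points lie mostly to the right, at a median of 61.6% G and C against 46.6% for the grey ones.

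Some of the genes at the threshold also shared the ends of their hairpins. A hairpin that begins with GU and ends with AG has the ends of a spliced intron, as in mirtrons, short introns that are freed by splicing and enter the pathway without DROSHA. These ends were found in 7 of the 77 matched hairpins (9.09%), in 2 of the 465 below the threshold (0.43%) and in 36 of all 1560 RefSeq hairpins (2.31%), reading the hairpin strand only. Hairpins at the threshold are richer in G and C, as given above. Neither the comparison of base composition nor that of these ends was planned. A split at 60% G and C or more was also chosen after seeing the data. Among such hairpins these ends were in 6 of 46 at the threshold (13.0%) and in 1 of 44 below it (2.27%). That 1 was MIR1226, just outside the threshold at 6.95 in miR-95 cells, so the contrast depends in part on where the cut lies. The part of base composition in the contrast was not tested. Of the 7 hairpins at the threshold with these ends, those with the highest and the lowest difference are shown with the ends in capitals. Beside them are MIR503 and MIR4279, which lack these ends, in lower case.
MIR1229: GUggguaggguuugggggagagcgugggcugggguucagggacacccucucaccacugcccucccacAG
MIR877: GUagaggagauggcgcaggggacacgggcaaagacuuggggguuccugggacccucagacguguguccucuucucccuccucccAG
MIR503: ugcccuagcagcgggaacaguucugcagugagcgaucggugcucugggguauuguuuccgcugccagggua
MIR4279: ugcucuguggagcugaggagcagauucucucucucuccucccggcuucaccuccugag

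MIR1229 lies at chr5:179798278-179798346 on the minus strand and MIR877 at chr6:30584332-30584417 on the plus strand. MIR503 lies at chrX:134546328-134546398 and MIR4279 at chr5:31936102-31936159, both on the minus strand (RefSeq, GRCh38.p14). The 7 genes with these ends differed in both directions. MIR1229 was 1.77-fold higher and MIR1238 1.21-fold higher, and MIR1224 and MIR1227 differed by 0.095 and 0.005. MIR1231 differed by -0.055 and MIR1237 by -0.145. MIR877, which lies in the ribosome biogenesis and translation gene ABCF1, read 7.66 in miR-95 cells and 7.99 in control cells.

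Protein-coding genes known to hold a microRNA in an intron were listed separately. Of 54 genes, 27 were measured and 23 reached 7.0, and 0 passed 1.5-fold in either direction. Over all named genes at the threshold 0.398% passed it upwards and 0.884% downwards, so a count of 0 among 23 lies near those shares. Their median difference was -0.075, beside -0.025 over all genes at the threshold. PANK1, a pantothenate kinase that holds miR-107, read 6.64 in miR-95 cells and 7.11 in control cells (1.42-fold lower). NRDC, a metalloprotease, was 1.26-fold lower. RNF130, which holds miR-340, read 8.30 in miR-95 cells and 7.91 in control cells (1.28-fold higher), and SLIT2, a secreted guidance factor that holds miR-218, was 1.21-fold higher. SREBF2 and SREBF1, the sterol regulators that hold the miR-33 genes, differed by 0.075 and 0.135. Small nucleolar RNA genes, another class of short noncoding RNA, had 11 of 21 measured genes at the threshold. Their differences ran from -0.465 to 0.155 and 0 passed 1.5-fold, again near the shares over all genes.

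The epithelial keratins KRT8, KRT18 and KRT19 and the adhesion molecule EPCAM read from 7.81 to 9.83 in miR-95 cells and from 7.86 to 9.65 in control cells. VIM, which is not an epithelial marker but was listed with them for PC3, read 9.55 in miR-95 cells and 9.53 in control cells. The prostate luminal markers KLK3 and KLK2 were below 7.0 on both arrays. Among markers of other cells, CD14, VWF, DCN, CHGA and SYP were below 7.0 on both arrays, and CD68, a lysosomal protein abundant in macrophages, was above it on both. CDH1 and PTPRC were among the markers named by no probe set used here. LUM, a matrix gene of fibroblasts, read 6.04 in miR-95 cells and 7.33 in control cells, and its part in the differences above was not tested.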

How the data were processed

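RNA of 2 PC3 lines was measured on an Affymetrix gene array, with 1 array per group. The authors deposited log2 expression values for 23641 probe sets, rounded to 2 decimals, and the scale was read from the values. Per the submitters' processing notes, the software was Affymetrix Expression Console 1.2. Summarisation, background correction, scaling, filters and genome build are not stated in what was used here.

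Platform annotation named 1 gene for 14088 probe sets. All Entrez identifiers matched RefSeq (GRCh38.p14), which gave 13864 genes. Probe sets of a gene were averaged and each array was centred on its median over genes, a shift of 0.035 between them. The members and lists were chosen with earlier results of these data known. Genes were named by rule (hosts, let-7 genes, largest differences, brightest genes, genes next to the threshold, shared clusters or seeds), with MIR210, MIR375 and MIR17HG added after their values were seen. No test was possible, and the number of arrays limits the precision. The steps, run with Python 3.11.15 and pandas 2.3.3, were tested on simulated data. Alternatives were no centring, loess (span 0.4), quantile normalization, the brightest probe set, an offset of 32 and other filters.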

Additional observations from a re-analysis of the deposited data

How the results depend on the processing

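No paired analysis was possible because each group holds 1 array, and for the same reason no array could be left out. Over no centring, loess, quantile normalization, the brightest probe set and an offset of 32 added on the linear scale, the 94 differences moved by at most 0.192, less than the 0.268 spread between probe sets. MIR1229 ranged from 0.68 to 0.86, MIR503 from 0.50 to 0.66 and MIR4279 from -0.94 to -0.75. With the offset MIR503 fell short of 1.5-fold and 1 gene remained past it upwards, since an offset shrinks differences of dim genes. A change of sign under at least 1 of these settings was seen in 12 genes, all with a difference of no more than 0.1, MIR338 with the brightest probe set among them. The median difference of the 94 genes was 0.035 without centring. The filter set the counts by its own construction. With a higher value of at least 6.0 there were 212 genes, 97 positive, 3 at least 1.5-fold higher and 3 lower (1.42% each). The shares over all genes at 6.0 are not given here. At 8.0 there were 31 genes, 18 positive, with 0 past 1.5-fold upwards and 0 downwards. Over all 6092 named genes at 8.0 or more the shares were 0.394% and 0.854%. The counts were also 0 each way when both values had to reach 7.0, where the shares over all genes were 0.336% and 0.75%. Counts of 0 lie near these shares. With no filter there were 639 genes, 269 positive, 14 at least 1.5-fold higher (2.19%) and 19 lower (2.97%). Over all named genes the upward share was 0.398% at the threshold and 0.463% below it. The downward shares were 0.884% and 0.977%. Dim signal limits these values, since the higher value had a median of 7.61 over the 94 genes, against 9.01 over all named genes at the threshold. Of the 94 genes, 45 exceeded the array median on both arrays, but that median by construction splits all named genes evenly.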

Other observations

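Some microRNA genes below 7.0 on both arrays differed more than any of the 94 microRNA genes at the threshold. The genes named here were chosen after their values were seen. MIR4266 read 4.46 in miR-95 cells and 2.97 in control cells, and MIR320D1 read 4.60 in miR-95 cells and 3.29 in control cells. MIR4301 read 3.05 in miR-95 cells and 4.24 in control cells. MIR32, which shares its seed with MIR25 and MIR92B, read 4.92 in miR-95 cells and 6.03 in control cells. All of these values lie below the medians of the arrays.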
